A study of Mus musculus with 7 samples.

Results

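The genes described here encode the subunits of voltage-gated sodium channels, voltage-gated calcium channels and HCN channels of the mouse hippocampus. They are the protein-coding records of the authors' gene table whose symbol starts with Scn, a number and a or b, with Cacna, Cacnb or Cacng, or with Hcn and a number. The rule found 44 genes among 38924 records, of which 22572 are protein coding. They comprise 10 sodium channel alpha subunits, 4 sodium channel beta subunits, 10 calcium channel alpha1 subunits, 4 alpha2delta subunits, 4 calcium channel beta subunits, 8 gamma subunits or TARPs, and 4 HCN channels. Polyadenylated RNA of dissected hippocampus from adult mice under standard housing was sequenced as 7 libraries in 3 groups. There were 3 libraries of Ammon's horn (the CA fields) from homozygous Khdrbs3 knockout mice, 1 of dentate gyrus from wild-type mice and 3 of Ammon's horn from wild-type mice. Khdrbs3 encodes the RNA-binding splicing regulator T-STAR, and for every group the labels give the same background, a Tstar null allele crossed back to C57Bl6 over 8 generations. Whether libraries came from separate animals is not given, so each p-value measures the spread between these libraries, which may be technical.

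Sodium channels carry the rising phase of the action potential: the alpha subunit forms the pore, and the beta subunits are single-pass membrane proteins that set its gating, its trafficking and cell adhesion. In calcium channels the alpha1 subunit forms the pore and gives the channel its type (L, P/Q, N, R or T), while the cytoplasmic beta and the extracellular alpha2delta subunits set how much of it reaches the membrane. Several members of the gamma family are TARPs, which escort AMPA-type glutamate receptors to synapses. HCN channels open on hyperpolarisation, are gated by cyclic AMP, and are known for damping synaptic input in the distal dendrites of CA1 pyramidal cells.

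Libraries held 50230733 to 67692326 counts in the gene table and 29698245 to 39904606 in exon bins, and no libraries were identical. Bin 2 of Khdrbs3, in the deleted part, had 6, 9 and 7 reads in knockout Ammon's horn, 506 in dentate gyrus and 808, 1103 and 964 in wild-type Ammon's horn. Levels in CPM are gene-table counts scaled to a common library size with TMM factors. Of the marker lists, 6 of 6 granule cell markers were higher in dentate gyrus (542 CPM, against 49.2 to 67.7 CPM in wild-type Ammon's horn) and 5 of 5 CA1 pyramidal markers lower (94.98 CPM, against 732 to 759 CPM). Of the 6 CA2 and CA3 pyramidal markers, unlike those of CA1, 3 were higher and 0 lower in dentate gyrus (309 CPM, against 226 to 251 CPM in wild-type Ammon's horn). Bok, Amigo2 and Cacng5 did not pass (log2 fold changes -0.07, -0.08 and 0.14). Choroid plexus markers summed to 779, 18.2 and 724 CPM in the 3 knockout libraries, 259 CPM in dentate gyrus and 149, 37.9 and 20.8 CPM in the 3 wild-type Ammon's horn libraries. No marker was at 0 in any library.

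Levels between genes were compared as exon-bin reads per kb of exon, scaled to the total of exon-bin reads in the library (RPKM over exon bins). On this scale the highest levels were those of auxiliary subunits. Other auxiliary subunits, such as Cacnb4 (7.56) and Cacng2 (6.71), lay below pore-forming genes such as Hcn2 (35.1). High in wild-type Ammon's horn stood Cacnb3, a calcium channel beta subunit (76.5, SD 1.36), and the TARP Cacng8 (61.8, with an approximate exon length). The sodium channel beta subunit Scn2b (50.1) and the alpha2delta subunit Cacna2d3 (48.2) came next among the genes described. The spreads of Scn2b (SD 1.29), Cacna2d3 (SD 5.03) and the TARP Cacng7 (46.6, SD 4.28) overlap, so these neighbours cannot be ordered. In all, 18 members lay at 10 or more, 14 between 1 and 10, and 12 below 1. Exon lengths are approximate for 10 members: Cacna1c, Cacna1d, Cacna2d1, Cacna2d2, Cacnb2, Cacng8, Scn2a1, Scn3b, Scn8a and Scn9a. Their levels per exon length, and the shares of sums that include them, are therefore approximate too. The plot of levels by library shows how far these levels span and that the 3 groups lie close together for most genes.

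**Figure D1:**
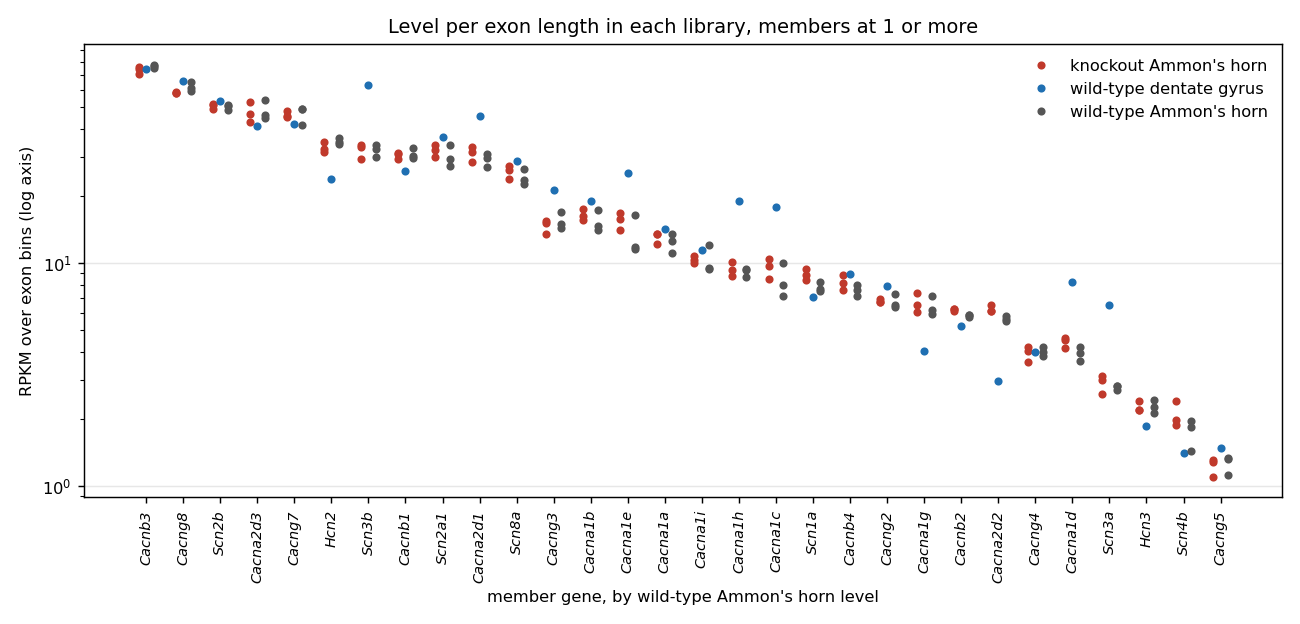
RPKM over exon bins (log axis) of 30 members at 1 or more in wild-type Ammon's horn, with 1 point per library for knockout Ammon's horn, wild-type dentate gyrus and wild-type Ammon's horn. Cacnb3 is the highest of the genes drawn in wild-type Ammon's horn, and the dentate gyrus point leaves the Ammon's horn points for genes such as Scn3b and Cacna1h.

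Among pore-forming sodium channel genes the neuronal Scn2a1 (30.2 in wild-type Ammon's horn; RefSeq calls it Scn2a) and Scn8a (24.3) led on this scale, followed by Scn1a (7.79) and Scn3a (2.78). Genes known from muscle, heart or sensory ganglia were close to absent. Over the 7 libraries, Scn10a had 1 exon-bin read, Scn4a (skeletal muscle) 7 and Scn11a 14, and Cacng1, a skeletal muscle subunit, had 0. Cacna1f, the retinal L-type gene, had 42 reads and Cacna1s, its skeletal muscle relative, 131. The gene table still lists counts for these genes, so their fold changes below rest on reads outside exon bins or on very few reads.

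Dentate gyrus was set against wild-type Ammon's horn with edgeR's quasi-likelihood test, a test of counts that shares 1 estimate of the spread over all 7 libraries and adjusts p over all genes by the Benjamini-Hochberg method. The single dentate gyrus library has no replicate and is assumed to vary like the others. Of the 44 members, 18 passed an adjusted p of 0.05, 11 higher and 7 lower in dentate gyrus. That is 40.9% of the members, beside 22.0% of 24486 genes tested (11.2% higher and 10.9% lower). In each of the 18, the dentate gyrus library lay outside all 6 Ammon's horn libraries, as the plot of called members shows for 16 of them. Changes of at least 2-fold were called for 5 members (11.4%, beside 3.98% of all genes), among them Cacna1c, Cacna1h and Cacna2d4 higher and Cacna2d2 lower. Cacna2d4 is counted among the 18 and the 5 from the gene table alone. In exon-bin sums its log2 fold change was -0.09 (SE 0.45), as described below. Cacna1c and Cacna1h (both 1.002) and Cacna2d2 (-1.03) lay close to the 2-fold cut, and Scn3a (0.994) just short of it. In exon-bin sums Cacna1h (0.994) and Cacna2d2 (-0.995) fell short of the cut, while Scn3a (1.15) and Scn9a (2.18) passed it. Which genes count as 2-fold thus depends on small differences and on the count used. The members' median log2 fold change was 0.06, that of all genes tested -0.01. In dissected tissue, fewer cells of a type and less RNA per cell cannot be told apart.

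Other cell types moved with this comparison. Interneuron markers summed to 512 CPM in dentate gyrus, against 601 to 679 CPM in wild-type Ammon's horn (5 of 8 lower, 1 higher), and oligodendrocyte markers to 1330 CPM, against 3969 to 4151 CPM (6 of 6 lower). The part of these cells in the channel values was not tested. In the results that follow, each adjusted p is edgeR's over all genes.

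**Figure D2:**
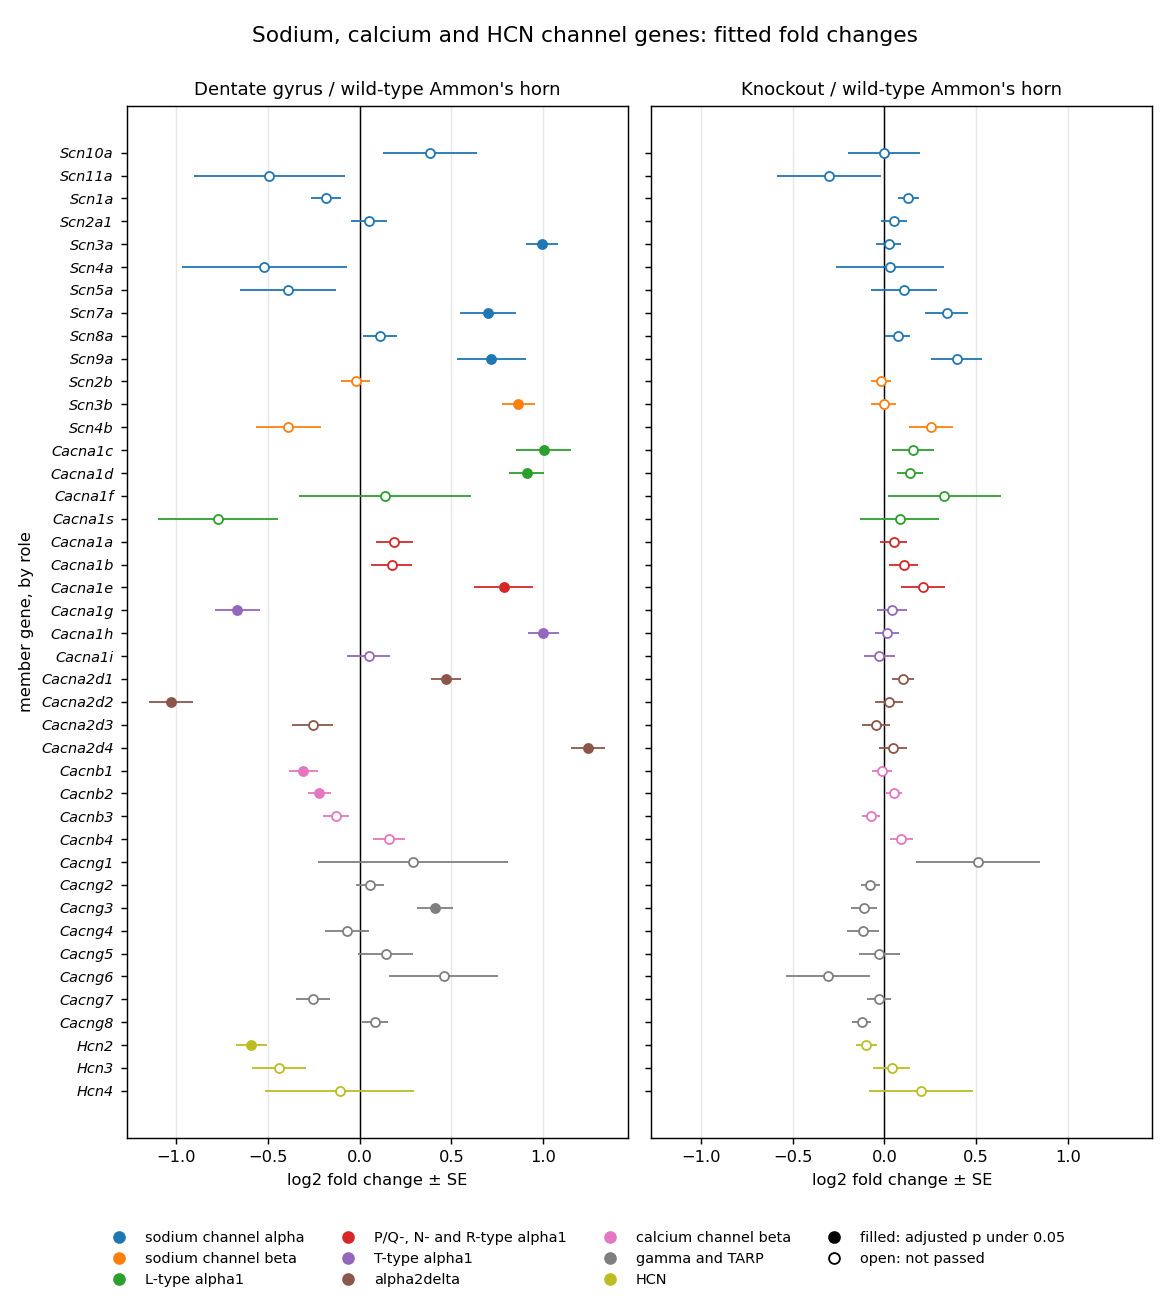
Fitted log2 fold change with its standard error for 42 members, grouped by role, in dentate gyrus over wild-type Ammon's horn (left) and knockout over wild-type Ammon's horn (right) on 1 shared axis. Filled points passed an adjusted p of 0.05, which 16 of those drawn did on the left and 0 on the right.

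Of the HCN genes described here, Hcn2 was lower in dentate gyrus and the changes of Hcn3 and Hcn4 did not pass. Hcn2 (chr10:79716634-79736108, plus strand, mm10), a slower subtype found throughout the brain, had 54.7 CPM in dentate gyrus, 81.7, 73.2 and 75.2 CPM in Ammon's horn of the knockout, and 80.3, 79.8 and 86.6 CPM in that of the wild type (log2 fold change -0.59, SE 0.08, adjusted p = 7.89e-04). The dentate gyrus library was the lowest of the 7 for Hcn2, while the 2 Ammon's horn groups overlapped.

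Hcn3 had 5.48 CPM in dentate gyrus, 6.94, 7.77 and 8.19 CPM in Ammon's horn of the knockout, and 6.97, 7.81 and 7.48 CPM in that of the wild type, and its change did not pass (log2 fold change -0.44, SE 0.15, adjusted p = 0.0560), although the dentate gyrus library was again the lowest. Hcn4, the pacemaker subtype of the heart, had 0.804 CPM in dentate gyrus, 1.45, 0.755 and 0.769 CPM in Ammon's horn of the knockout, and 0.764, 0.811 and 1.02 CPM in that of the wild type (log2 fold change -0.11, SE 0.41, adjusted p = 0.887), and its groups overlapped.

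**Figure D3:**
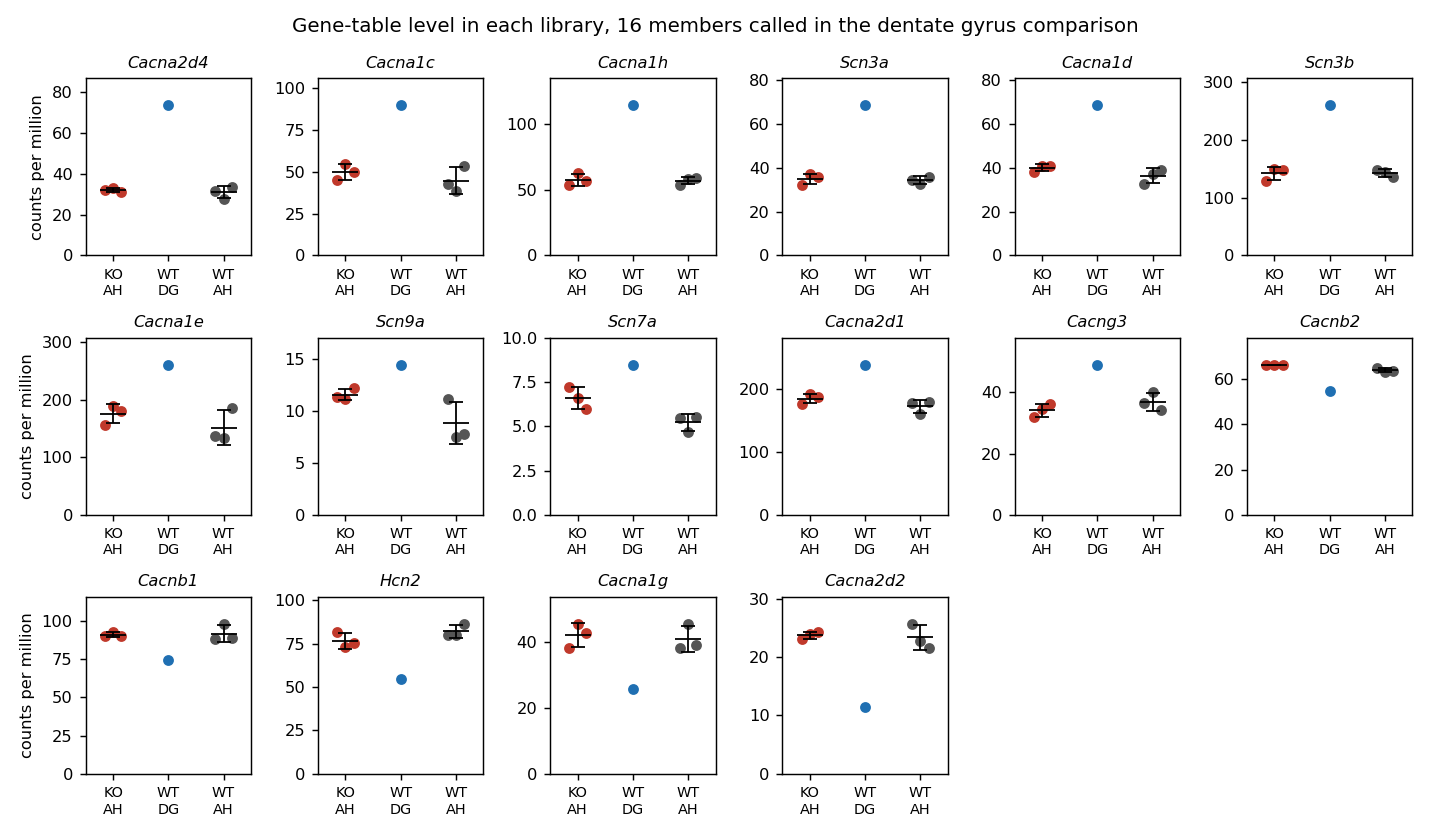
Gene-table CPM in each library of knockout Ammon's horn (KO AH), wild-type dentate gyrus (WT DG) and wild-type Ammon's horn (WT AH) for 16 members called in the dentate gyrus comparison, from the highest to the lowest log2 fold change, with black bars for the mean ± SD of groups of 3. Each dentate gyrus point lies above or below all 6 Ammon's horn points.

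The L-type calcium channel genes of brain were both higher in dentate gyrus. These channels open at strong depolarisation and are known for coupling activity to gene transcription. Cacna1c (chr6:118592319-118780324, minus strand), the main brain and heart form, had 89.6 CPM in dentate gyrus, 44.9, 54.7 and 49.7 CPM in Ammon's horn of the knockout, and 42.4, 38.3 and 53.5 CPM in that of the wild type (log2 fold change 1.002, SE 0.15, adjusted p = 9.46e-04). Cacna1d (chr14:30039949-30491156, minus strand), a form that opens at lower voltages, had 68.4 CPM in dentate gyrus, 38.2, 40.9 and 40.99 CPM in Ammon's horn of the knockout, and 32.6, 37.3 and 39.1 CPM in that of the wild type (log2 fold change 0.91, SE 0.09, adjusted p = 1.06e-04). In both the dentate gyrus value stood clear of all 6 Ammon's horn values. Per exon length the L-type genes summed to 14.1 ± 1.19 in knockout Ammon's horn, 26.1 in dentate gyrus and 12.4 ± 1.72 in wild-type Ammon's horn (SD, n = 3 and 3), and Cacna1c held 68.4% in dentate gyrus and 67.1% ± 3.29 in wild-type Ammon's horn of the sum, a difference smaller than the spread. Cacna1d shares positions with genes on the other strand, Dcp1a and Chdh, whose counts equal 38.4% and 11.6% of its own. With exon bins alone its change was as large (log2 fold change 0.99, SE 0.10, adjusted p = 1.77e-05).

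Presynaptic calcium channel genes split. Cacna1e (chr1:154392519-154725920, minus strand), which encodes the R-type channel, was higher in dentate gyrus, with 261 CPM in dentate gyrus, 157, 189 and 180.1 CPM in Ammon's horn of the knockout, and 136, 133 and 185 CPM in that of the wild type (log2 fold change 0.78, SE 0.16, adjusted p = 0.00604). Wild-type Ammon's horn replicate 3 was the highest of its group and still below the dentate gyrus library. Cacna1a and Cacna1b, which encode the P/Q- and N-type channels that trigger transmitter release, did not pass (log2 fold changes 0.19 (SE 0.10) and 0.18 (SE 0.11)). Cacna1b, with the highest mean of these 3 genes per exon length in Ammon's horn (in dentate gyrus Cacna1e was higher), had 119 CPM in dentate gyrus, 106, 124 and 110.5 CPM in Ammon's horn of the knockout, and 97.3, 102 and 118 CPM in that of the wild type, and its dentate gyrus value lay within the Ammon's horn range.

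T-type genes, whose channels open near rest and drive burst firing, moved in opposite directions. Cacna1h (chr17:25374285-25433783, minus strand) was higher, with 114 CPM in dentate gyrus, 53.6, 62.8 and 56.3 CPM in Ammon's horn of the knockout, and 54.02, 58.1 and 58.96 CPM in that of the wild type (log2 fold change 1.002, SE 0.09, adjusted p = 3.28e-05). Cacna1g (chr11:94408391-94474198, minus strand) was lower, with 25.9 CPM in dentate gyrus, 38.4, 45.6 and 42.7 CPM in Ammon's horn of the knockout, and 38.2, 45.7 and 39.2 CPM in that of the wild type (log2 fold change -0.67, SE 0.12, adjusted p = 0.00325). Cacna1i, the T-type gene of the highest level per exon length in Ammon's horn, had 74.99 CPM in dentate gyrus, 74.8, 69.5 and 68.9 CPM in Ammon's horn of the knockout, and 66.2, 67.6 and 83.6 CPM in that of the wild type and did not pass (log2 fold change 0.05, SE 0.12, adjusted p = 0.814). The dentate gyrus library stood apart for Cacna1h and Cacna1g and inside the Ammon's horn range for Cacna1i. Per exon length Cacna1h made up 55.1% in dentate gyrus and 35.3% ± 0.839 in wild-type Ammon's horn of the T-type sum (SD, n = 3), and Cacna1g 11.7% in dentate gyrus and 24.9% ± 2.99 in wild-type Ammon's horn.

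The alpha2delta subunits, the targets of the drug gabapentin in the case of Cacna2d1 and Cacna2d2, also changed in opposite directions. Cacna2d1 (chr5:15934691-16374511, plus strand) was higher in dentate gyrus, with 238 CPM in dentate gyrus, 176, 191 and 186 CPM in Ammon's horn of the knockout, and 177, 160.0 and 178 CPM in that of the wild type (log2 fold change 0.47, SE 0.08, adjusted p = 0.00238). Cacna2d2 (chr9:107399612-107529346, plus strand), known in brain from interneurons and cerebellar Purkinje cells, was lower, with 11.5 CPM in dentate gyrus, 23.1, 23.98 and 24.2 CPM in Ammon's horn of the knockout, and 25.7, 22.8 and 21.6 CPM in that of the wild type (log2 fold change -1.03, SE 0.12, adjusted p = 2.15e-04). Neither gene's dentate gyrus value fell within the Ammon's horn range. Cacna2d3, the highest of the 4 per exon length in Ammon's horn, had 79.1 CPM in dentate gyrus, 84.9, 99.3 and 90.3 CPM in Ammon's horn of the knockout, and 91.3, 105 and 87.1 CPM in that of the wild type and did not pass (log2 fold change -0.26, SE 0.11, adjusted p = 0.133). Per exon length Cacna2d1 was 50.7% in dentate gyrus and 35.1% ± 3.58 in wild-type Ammon's horn of the alpha2delta sum (SD, n = 3), and Cacna2d3 45.8% in dentate gyrus and 57.9% ± 3.87 in wild-type Ammon's horn.

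Cacna2d4 (chr6:119236526-119352407, plus strand) gave the largest log2 fold change of the 44 genes in the gene table, at positions it shares with a gene on the other strand. It had 73.4 CPM in dentate gyrus, 31.9, 32.96 and 31.2 CPM in Ammon's horn of the knockout, and 31.7, 27.9 and 33.5 CPM in that of the wild type (log2 fold change 1.24, SE 0.09, adjusted p = 1.33e-05). Lrtm2 (chr6:119315133-119330766, minus strand), which encodes a leucine-rich repeat membrane protein, lies wholly inside it on the other strand. Lrtm2 had 4404 gene-table counts in dentate gyrus and 1493, 1722 and 1856 in wild-type Ammon's horn. Cacna2d4 itself had 4565 in dentate gyrus and 1658, 1924 and 2002 in wild-type Ammon's horn. With the Lrtm2 counts taken off, Cacna2d4 kept 161 counts in dentate gyrus and 165, 202 and 146 in wild-type Ammon's horn. In its exon bins Cacna2d4 had 39 reads in dentate gyrus, 22, 48 and 27 in knockout Ammon's horn and 26, 61 and 39 in wild-type Ammon's horn. The dentate gyrus value fell inside the Ammon's horn range (log2 fold change -0.09, SE 0.45, adjusted p = 0.909). The 7 libraries together had 59.8 gene-table counts for each exon-bin read of this gene.

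**Figure D4:**
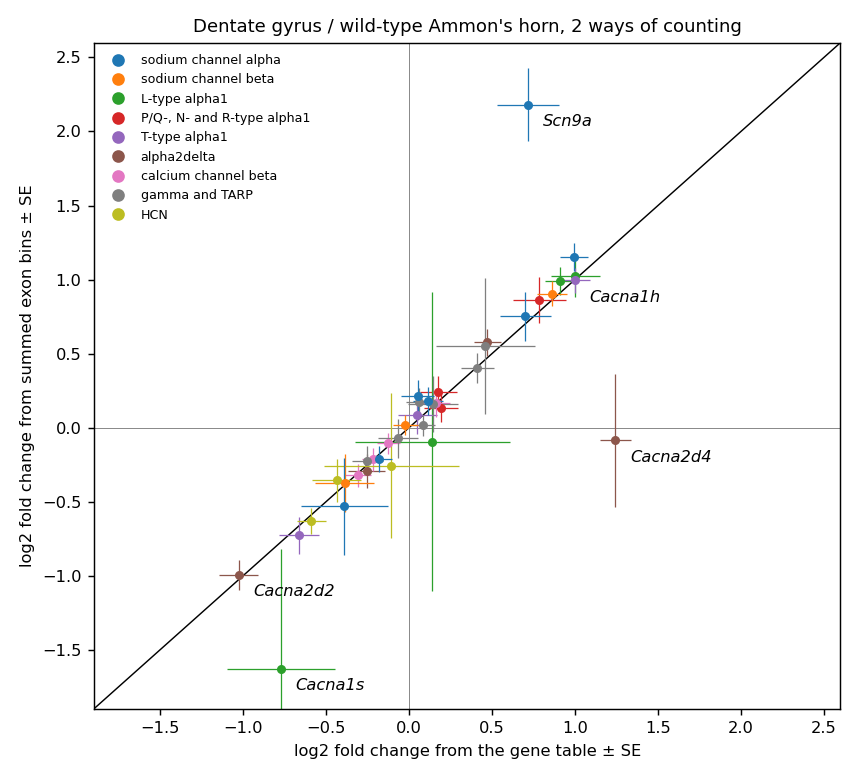
Log2 fold change of dentate gyrus over wild-type Ammon's horn from the gene table (x axis) and from the gene's summed exon bins (y axis), each with its standard error, for 38 members tested both ways; the line marks equal values. Most members lie close to the line, Cacna2d4 lies near 0 on the y axis, and Scn9a lies far above the line.

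Calcium channel beta subunits showed small changes. Cacnb1 (chr11:98001508-98023034, minus strand), the form also used in skeletal muscle, was lower, with 74.2 CPM in dentate gyrus, 90.1, 92.8 and 89.8 CPM in Ammon's horn of the knockout, and 88.05, 98.2 and 88.97 CPM in that of the wild type (log2 fold change -0.31, SE 0.08, adjusted p = 0.0181). Cacnb2 (chr2:14604306-14987908, plus strand), also known from heart, had 54.95 CPM in dentate gyrus, 66.4, 66.2 and 66.5 CPM in Ammon's horn of the knockout, and 65.00, 63.3 and 63.6 CPM in that of the wild type (log2 fold change -0.22, SE 0.06, adjusted p = 0.0317). The dentate gyrus library was the lowest of the 7 for both, but Cacnb2 lost its call in exon-bin sums (log2 fold change -0.22, SE 0.08, adjusted p = 0.0572) and without wild-type replicate 1 (adjusted p = 0.0570) or knockout replicates 2 or 3 (adjusted p = 0.0634 and 0.0663). With wild-type libraries alone, Cacnb1 had an adjusted p of 0.0626 and Cacnb2 of 0.118. Cacnb3, the most abundant beta subunit per exon length, had 157 CPM in dentate gyrus, 164, 167 and 157 CPM in Ammon's horn of the knockout, and 169, 171 and 173 CPM in that of the wild type and did not pass (log2 fold change -0.13, SE 0.07, adjusted p = 0.235). Cacnb4 did not pass either (log2 fold change 0.16 (SE 0.09)), and 78.5% as many counts as its own belong to A430018G15Rik, a transcript on the other strand whose reads cannot be told apart from those of Cacnb4 where they overlap.

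Of the gamma subunits and TARPs, 1 of 8 changed. Cacng3 (chr7:122670492-122769393, plus strand), a TARP of cortical and hippocampal neurons, was higher in dentate gyrus, with 49.1 CPM in dentate gyrus, 31.9, 34.5 and 36.2 CPM in Ammon's horn of the knockout, and 36.4, 40.02 and 34.3 CPM in that of the wild type (log2 fold change 0.41, SE 0.10, adjusted p = 0.0126). All 6 Ammon's horn values lay below the dentate gyrus value. Cacng8, the most abundant TARP per exon length and the principal one in hippocampus, had 89.3 CPM in dentate gyrus, 75.1, 77.3 and 79.5 CPM in Ammon's horn of the knockout, and 82.1, 88.2 and 82.6 CPM in that of the wild type (log2 fold change 0.08, SE 0.07, adjusted p = 0.454). Its 2 Ammon's horn groups were free of overlap with each other, and the dentate gyrus library was only just above the highest wild-type one. Cacng5, which also stands in the list of CA2 and CA3 markers used here, had 6.05 CPM in dentate gyrus, 5.61, 5.11 and 5.40 CPM in Ammon's horn of the knockout, and 5.996, 5.46 and 4.99 CPM in that of the wild type and did not pass (log2 fold change 0.14, SE 0.15, adjusted p = 0.557). The other 5 had log2 fold changes between -0.25 (Cacng7) and 0.46 (Cacng6, at about 1 CPM).

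Of the sodium channel alpha genes, 3 of low to middling level on chromosome 2 were higher in dentate gyrus, and the 3 most abundant did not pass. Scn3a, Scn2a1, Scn1a, Scn9a and Scn7a lie in a row at chr2:65457118-66784914, and the 3 are among these 5. Scn3a (chr2:65457118-65567627, minus strand), known for its high level before birth, had 68.5 CPM in dentate gyrus, 32.3, 36.96 and 35.6 CPM in Ammon's horn of the knockout, and 34.6, 32.6 and 35.99 CPM in that of the wild type (log2 fold change 0.99, SE 0.09, adjusted p = 3.64e-05). Scn7a (chr2:66673425-66784914, minus strand), a sodium sensor known from glia and neurons of the sensory circumventricular organs, had 8.51 CPM in dentate gyrus, 7.21, 6.63 and 5.996 CPM in Ammon's horn of the knockout, and 5.48, 4.69 and 5.54 CPM in that of the wild type (log2 fold change 0.70, SE 0.15, adjusted p = 0.00793). For each the dentate gyrus library was the highest of the 7.

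Scn9a (chr2:66480080-66634952, minus strand), known from pain-sensing neurons, had 14.5 CPM in dentate gyrus, 11.3, 11.2 and 12.2 CPM in Ammon's horn of the knockout, and 11.2, 7.50 and 7.78 CPM in that of the wild type (log2 fold change 0.72, SE 0.19, adjusted p = 0.0201). Gm13629, an antisense record, overlaps it and held 777 gene-table counts in dentate gyrus and 447, 383 and 362 in wild-type Ammon's horn, beside 900 for Scn9a in dentate gyrus and 586, 518 and 465 in wild-type Ammon's horn. In exon bins Scn9a had 209 reads in dentate gyrus, 49, 69 and 63 in knockout Ammon's horn and 37, 52 and 49 in wild-type Ammon's horn. The exon-bin change was larger than that of the gene table (log2 fold change 2.18, SE 0.25, adjusted p = 5.6e-05). Its direction was the same in both counts, but its size depended on the count and reads of the 2 strands cannot be told apart.

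Scn2a1, the most abundant alpha gene per exon length, had 285 CPM in dentate gyrus, 274, 297 and 284 CPM in Ammon's horn of the knockout, and 273, 251 and 301 CPM in that of the wild type and did not pass (log2 fold change 0.05, SE 0.10, adjusted p = 0.761). Scn8a, the channel of mature axon initial segments, had a log2 fold change of 0.11 (SE 0.09), and Scn1a, the main alpha subunit of parvalbumin interneurons, one of -0.18 (SE 0.08). The dentate gyrus library lay inside the Ammon's horn range for Scn2a1 and Scn8a. Per exon length Scn3a made up 8.02% in dentate gyrus and 4.23% ± 0.264 in wild-type Ammon's horn of the alpha sum (SD, n = 3). Scn2a1 and Scn8a together dominated it in both regions. Scn2a1 held 45.5% in dentate gyrus and 45.7% ± 1.32 in wild-type Ammon's horn, while Scn8a held 35.7% in dentate gyrus and 36.8% ± 0.445 in wild-type Ammon's horn.

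Among sodium channel beta genes, Scn3b (chr9:40269216-40291618, plus strand) was higher in dentate gyrus, with 259 CPM in dentate gyrus, 128, 149 and 148 CPM in Ammon's horn of the knockout, and 147, 144 and 135 CPM in that of the wild type (log2 fold change 0.86, SE 0.09, adjusted p = 1.10e-04). The dentate gyrus value was above all 6 Ammon's horn values. Scn3b encodes a beta subunit that attaches to the alpha subunit without a disulfide bond, unlike Scn2b and Scn4b. Per exon length Scn3b supplied 20.5% in dentate gyrus and 8.83% ± 0.417 in wild-type Ammon's horn of the beta sum (SD, n = 3).

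Scn2b did not pass (log2 fold change -0.02 (SE 0.08)), and neither did Scn4b, which is linked to resurgent sodium current (-0.39 (SE 0.18)). The record Gm10684 on the other strand covers Scn2b and holds 100.1% as many gene-table counts (15295 beside 15282 in dentate gyrus). Its counts were nearly those of Scn2b in every library, so the reads of the 2 records cannot be told apart. In exon bins the log2 fold change of Scn2b was 0.02 (SE 0.07). Both ways of counting put the change of Scn2b near 0.

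Exon-bin sums kept 16 of the 18 calls. The 2 lost were Cacna2d4, whose direction turned, and Cacnb2, as given above. In that count 29.3% of 16263 genes were called. Across the other fits with different scaling, filters, tests or libraries, the number of members called lay between 16 and 19.

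Proteins that bind these channels were counted in a list of 30 genes, all tested, of which 7 were higher and 8 lower in dentate gyrus, beside the same 22.0% of all genes. Pex5l, which encodes the HCN accessory protein TRIP8b that places HCN channels in dendrites, had 83.6 CPM in dentate gyrus, 149, 175 and 177 CPM in Ammon's horn of the knockout, and 178, 173 and 164 CPM in that of the wild type (log2 fold change -1.04, SE 0.11, adjusted p = 1.06e-04), lowest in dentate gyrus as Hcn2 was. Nedd4l, a ubiquitin ligase that removes sodium channels from the membrane, had 199 CPM in dentate gyrus, 109, 117 and 112 CPM in Ammon's horn of the knockout, and 110.5, 107 and 117 CPM in that of the wild type (log2 fold change 0.84, SE 0.07, adjusted p = 3.72e-05). For both genes the dentate gyrus library lay outside the 6 others. Of the FGF homologous factors that bind sodium channel tails, Fgf14 was higher (0.36 (SE 0.09)), Fgf11 and Fgf12 were lower (-0.92 (SE 0.14) and -0.61 (SE 0.07)) and Fgf13 did not pass (0.07 (SE 0.09)).

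The axon initial segment scaffolds Ank3 (0.53 (SE 0.13)) and Sptbn4 (0.45 (SE 0.09)) were higher, as were Unc79 (0.57 (SE 0.07)) and Unc80 (0.60 (SE 0.11)), partners of the sodium leak channel, and the release-site scaffold Rimbp2 (0.52 (SE 0.12)). Lower were the L-type channel adaptors Stac (-0.71 (SE 0.19)) and Stac2 (-0.94 (SE 0.09)), the calcium channel inhibitor Rem2 (-0.90 (SE 0.14)), the release-site scaffold Rims2 (-0.33 (SE 0.08)) and the AMPA receptor partner Cnih2 (-0.56 (SE 0.08)), each a log2 fold change with its SE. Partners of the same channel family thus stood on both sides.

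The knockout was set against wild-type Ammon's horn to ask whether loss of the splicing regulator alters the level of channel genes, in a fit of the 6 Ammon's horn libraries. None of the 44 members passed (0 called in edgeR, beside 0.0745% of 22830 genes). An unadjusted p under 0.05 was found for 5 members (11.4%, beside 8.38% of all genes). DESeq2 also called 0 members, with 6 at an unadjusted p under 0.05, and limma-voom called 0, with 5. Log2 fold changes ran from -0.31 to 0.51 with a median of 0.04, that of all genes being 0.0015, with 26 above 0 and 18 below. The 30 members with a mean of at least 10 CPM in wild-type Ammon's horn had values between -0.12 and 0.21, and 2 standard errors around them reached from -0.29 to 0.45.

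Libraries of the 2 genotypes were free of overlap for 7 members (15.9%, beside 13.2% of all genes). Scn7a had 7.21, 6.63 and 5.996 CPM in the knockout, against 5.48, 4.69 and 5.54 CPM in the wild type (log2 fold change 0.34, SE 0.12, adjusted p = 0.502, unadjusted p = 0.0142). Cacng8 had 75.1, 77.3 and 79.5 CPM in the knockout, against 82.1, 88.2 and 82.6 CPM in the wild type (log2 fold change -0.12, SE 0.05, adjusted p = 0.534, unadjusted p = 0.0302). The knockout libraries were all higher for Scn7a and all lower for Cacng8, by amounts that did not pass over all genes. Scn4b, Cacnb2 and Cacng1 also had every knockout library higher, and Cacnb3 every knockout library lower, at unadjusted p between 0.0612 and 0.236. Cacng1 had 0 exon-bin reads in every library, so its values rest on few reads outside its exon bins.

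Scn9a and Scn1a, also with an unadjusted p under 0.05, overlapped between genotypes. Scn9a had 11.3, 11.2 and 12.2 CPM in the knockout, against 11.2, 7.50 and 7.78 CPM in the wild type (log2 fold change 0.39, SE 0.14, adjusted p = 0.505), and wild-type replicate 1 was level with the knockout libraries. Scn1a had 85.3, 96.98 and 93.4 CPM in the knockout, against 85.3, 83.4 and 83.2 CPM in the wild type (log2 fold change 0.13, SE 0.06, adjusted p = 0.562). The lowest knockout library for Scn1a was just below the highest wild-type library.

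Of the members with the highest mean level per exon length of their role in wild-type Ammon's horn, Scn2a1 had 274, 297 and 284 CPM in the knockout, against 273, 251 and 301 CPM in the wild type (log2 fold change 0.05, SE 0.07, adjusted p = 0.888) and Cacna1c had 44.9, 54.7 and 49.7 CPM in the knockout, against 42.4, 38.3 and 53.5 CPM in the wild type (log2 fold change 0.15, SE 0.11, adjusted p = 0.757). Cacna1b had 106, 124 and 110.5 CPM in the knockout, against 97.3, 102 and 118 CPM in the wild type (log2 fold change 0.10, SE 0.08, adjusted p = 0.772). Genotypes overlapped for these 3 genes. Others are Cacna1i with a log2 fold change of -0.03 (SE 0.08), Cacna2d3 with -0.04 (SE 0.08), Cacnb3 with -0.07 (SE 0.05) and Hcn2 with -0.10 (SE 0.06).

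Of the HCN genes, the values were -0.10 (SE 0.06) for Hcn2, 0.04 (SE 0.10) for Hcn3 and 0.20 (SE 0.28) for Hcn4, log2 fold changes of the knockout over wild-type Ammon's horn with their SE. Genotypes overlapped for these 3 genes as well. None of the 30 partner genes was called in the knockout either, with a median log2 fold change of 0.0099. Oligodendrocyte marker sums were lower in the knockout without overlap (3396 to 3632 CPM, against 3969 to 4151 CPM in wild-type Ammon's horn). So were those of CA1 pyramidal cells (672 to 707 CPM, against 732 to 759 CPM) and microglia (238 to 244, against 254 to 264 CPM). Interneuron sums were higher (682 to 721 CPM, against 601 to 679 CPM), and the other lists overlapped. The part of these cells in the channel values was not tested. Without knockout replicates 1 and 3, the libraries rich in choroid plexus markers, 0 members were called again and 1 had an unadjusted p under 0.05.

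Use of exons within these genes was tested on exon bins, the pieces into which the authors' files divide the exons of a gene, by the diffSpliceDGE method of edgeR, in which a bin's fold change is set against that of the rest of its gene. Of 1307 member bins, 810 held enough reads to be tested in the knockout and 0 passed, beside 0.00301% of 166154 bins. An unadjusted p under 0.05 was found for 8 member bins, 0.988% of them, beside 1.72% of all bins. With limma-voom 0 passed as well, with 16 at an unadjusted p under 0.05. Bin 1 of Scn2b (5 bases at its start) came nearest, with a usage log2 fold change of -0.52 (SE 0.15), then bin 62 of Cacna1b (-0.58, SE 0.20), a coding exon at chr2:24732196-24732348, and bin 26 of Cacna1h (-0.43, SE 0.18), a coding exon at chr17:25383962-25384088. Each had an adjusted p of 0.99999. Per gene (the Simes method over its bins), 0 of 33 members passed, beside 0.0411% of 12168 genes.

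In dentate gyrus, 815 member bins were tested and 0 passed, beside 0.213% of 169072 bins. An unadjusted p under 0.05 was found for 23 member bins (2.82%, beside 3.89% of all bins), and limma-voom called 1, with 32 at an unadjusted p under 0.05. Per gene, 0 of 34 members passed, beside 1.40% of 12270 genes. The gene-level changes thus came without a change in exon use that passed this test. The bin with the lowest p, bin 18 of Cacnb4, is described next and was chosen after its values were seen.

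Bin 18 of Cacnb4 (chr2:52558269-52558560, minus strand, mm10) is a coding first exon of 292 bases held by 2 annotated transcripts. The 3 transcripts that start farther upstream share bin 21 (chr2:52675728-52675811, 84 bases), and the reads of bins 18 and 21 were compared between libraries. Bin 18 is the longer, and reads were not scaled to bin length. The share of bin 18 can thus be set side by side between libraries. It does not give the proportion of Cacnb4 transcripts that used either start. Bin 18 had 87 reads in dentate gyrus, 40, 53 and 26 in knockout Ammon's horn and 36, 34 and 40 in wild-type Ammon's horn. Bin 21 had 18 reads in dentate gyrus, 29, 31 and 28 in knockout Ammon's horn and 16, 23 and 31 in wild-type Ammon's horn. Dentate gyrus had the most reads of any library in bin 18 and fewer than 5 of the 6 Ammon's horn libraries in bin 21.

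Bin 18 held 3.19% of the gene's exon-bin reads in dentate gyrus, 1.60% ± 0.45 in knockout Ammon's horn and 1.53% ± 0.19 in wild-type Ammon's horn (SD, n = 3 each). Its usage log2 fold change in dentate gyrus over wild-type Ammon's horn was 1.07 (SE 0.27, adjusted p = 0.0596), which did not pass. It did with limma-voom (1.11, adjusted p = 0.0313) and without knockout replicate 1 (1.07, adjusted p = 0.0292). Of the reads in bins 18 and 21 together, bin 18 held 82.9% in dentate gyrus (exact 95% Clopper-Pearson interval 74.3% to 89.5%), 56.4% ± 7.60 in knockout Ammon's horn and 61.7% ± 6.70 in wild-type Ammon's horn (SD, n = 3 each). Dentate gyrus was above all 6 Ammon's horn libraries, and its interval overlapped that of wild-type replicate 1 but not those of the other 5.

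**Figure D5:**
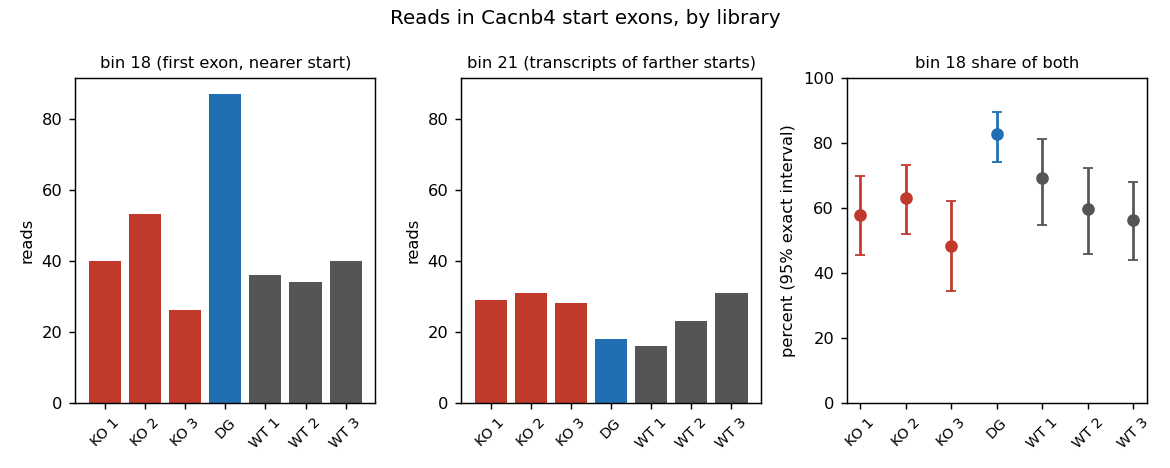
Reads in Cacnb4 bin 18 (left) and bin 21 (middle) and the share of bin 18 in the reads of both (right, percent with exact 95% intervals for counting error only) in each library: knockout Ammon's horn (KO 1 to 3), dentate gyrus (DG) and wild-type Ammon's horn (WT 1 to 3). The dentate gyrus library has 87 reads in bin 18 and 18 in bin 21, a share of 82.9% of reads, not scaled to bin length.

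The outermost of the RefSeq promoter windows are shown to set the letters before bin 18 beside those of a farther start. RefSeq (GRCm38.p6) holds promoter windows, from 250 bases before to 50 after a start, for 32 of the 44 members and 3 for Cacnb4. The first below lies just upstream of bin 18 (chr2:52558562-52558861, minus strand). The second, labelled farthest start, is the farthest of these 3 windows (chr2:52676094-52676393, minus strand). Its start is not the farthest annotated one, since exon bins 23 and 24 of the gene reach farther upstream, to chr2:52676831. The second window also overlaps bin 23 (chr2:52676271-52676582), which is coding. Capitals mark E-boxes (CANNTG), CCAAT boxes (CCAAT) and GC boxes (GGGCGG), searched on both strands.
Cacnb4 nearer start: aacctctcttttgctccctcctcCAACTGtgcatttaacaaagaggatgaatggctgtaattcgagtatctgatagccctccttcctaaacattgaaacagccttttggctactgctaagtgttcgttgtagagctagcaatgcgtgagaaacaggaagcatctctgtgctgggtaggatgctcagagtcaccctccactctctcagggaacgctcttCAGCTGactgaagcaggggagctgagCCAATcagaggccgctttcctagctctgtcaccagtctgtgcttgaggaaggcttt
Cacnb4 farthest start: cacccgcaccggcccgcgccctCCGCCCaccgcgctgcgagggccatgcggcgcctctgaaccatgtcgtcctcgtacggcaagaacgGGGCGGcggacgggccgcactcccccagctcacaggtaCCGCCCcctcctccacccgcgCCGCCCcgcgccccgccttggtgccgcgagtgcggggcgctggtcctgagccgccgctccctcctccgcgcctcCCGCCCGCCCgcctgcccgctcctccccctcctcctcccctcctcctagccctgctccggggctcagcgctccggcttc
The nearer window holds 2 E-boxes, 1 CCAAT box and 0 GC boxes, and 49.7% of its bases are G or C. In the farthest window there are 0 E-boxes, 0 CCAAT boxes and 6 GC boxes, and the share of G and C is 78.3%. The third window, not printed, lies directly before bin 21 (chr2:52675810-52676109) and holds 0 E-boxes, 0 CCAAT boxes and 0 GC boxes at 69.7% G and C. The farther windows thus share a higher G and C content than the nearer one but not the GC boxes. Over all 32851 windows the median share is 52.7%, and an E-box is found in 72.3% of windows, a CCAAT box in 37.4% and a GC box in 35.7%. These matches describe the letters and nothing about binding.

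Mutually exclusive exons are known in both channel families, where transcripts hold either of a pair of neighbouring exons of like length. The annotation has 11 such pairs in 10 members, but in 6 of these genes the bins of the pair could not be placed or one exon had no bin of its own. Pairs of Cacna1b and Cacnb4, which had bins and at least 50 reads, are described. The Cacna1b exons are shown because the pair differs at 40 of its 97 bases, marked by capitals (minus strand, mm10).
Cacna1b upstream exon: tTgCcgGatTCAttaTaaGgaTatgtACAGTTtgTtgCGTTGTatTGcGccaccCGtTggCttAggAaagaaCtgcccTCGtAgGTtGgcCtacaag
Cacna1b downstream exon: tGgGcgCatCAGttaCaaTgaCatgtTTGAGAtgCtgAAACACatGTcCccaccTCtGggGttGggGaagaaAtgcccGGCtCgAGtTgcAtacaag
The Cacna1b exons lie at chr2:24626823-24626919 and chr2:24625238-24625334.

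Cacna1b used its downstream exon in nearly all transcripts of every group. The upstream exon, known from pain-sensing neurons, had 3 of 87 reads of the pair in dentate gyrus (3.45%, exact 95% interval 0.717% to 9.75%). It had 9 of 236 in the pooled knockout libraries (3.81%, 1.76% to 7.12%) and 7 of 246 in the pooled wild-type Ammon's horn libraries (2.85%, 1.15% to 5.77%). All 3 intervals overlap. In Cacnb4 the upstream exon of a pair of 20 bases had 3 of 49 reads in dentate gyrus (6.12%, 1.28% to 16.9%), 0 of 144 in the pooled knockout libraries (upper bound 2.53%) and 2 of 174 in the pooled wild-type Ammon's horn libraries (1.15%, 0.140% to 4.09%).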

How the data were processed

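The authors deposited raw counts, not normalised, in a gene table and in exon-bin files of DEXSeq type for each library. Per the submitters' processing notes, the tools were TopHat2 2.0.8b, Trim Galore 0.3.5, DESeq2 1.0.19 and bedtools 2.17.0, on mm10. Whether strand was counted is not given in the sources used here, and neither is the counting rule of the gene table. From values such as those of Cacna2d4 and Scn2b, gene-table counts appear to span introns and overlapping genes. For Cacna2d3 they were fewer than the exon-bin reads (37945, against 42018). Libraries were made with the Qiagen RNeasy Plus and Illumina TruSeq mRNA kits, per the labels' protocols.

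The test of gene counts was that of edgeR 4.0.16 under R 4.3.3 (quasi-likelihood F test, TMM scaling, edgeR's low-count filter), over all genes, with Benjamini-Hochberg adjustment and a threshold of 0.05. The knockout fit used 6 libraries and the dentate gyrus fit all 7; the spread between libraries of a group was 10.6% and 10.8% as a coefficient of variation. Exon use was tested with diffSpliceDGE in bins of at least 10 reads in at least 3 libraries. Bin positions were rebuilt from GENCODE M21 for 34 members; for the other 10 the bins carry numbers alone and exon lengths are approximate. Alternatives were RLE scaling, DESeq2 1.42.0, limma 3.58.1 (voom), no low-count filter, exon-bin sums, other bin minimums, libraries left out and wild-type libraries alone. Simulated counts with known changes were used to test the fits.

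Described member by member are genes called in either comparison, the member of each role with the highest level per exon length, all HCN genes, and exclusive exon pairs of at least 50 reads. The members, the lists of partners and markers and the tests were chosen with earlier results of these data known. Intervals are exact (Clopper-Pearson, 95%) and cover counting error only. Some genes and sequences covered by these rules are not reported here, in text or figures, though counts over all members include them. No column was left unmapped, and 19 members are overlapped by another record.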

Additional observations from a re-analysis of the deposited data

How the results depend on the processing

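The call of 0 members in the knockout was the same under all 12 alternatives, and so was that of 0 member bins under all 10. In dentate gyrus the number of members called lay between 16 and 19. Cacna2d4 turned direction in exon-bin sums (log2 fold change -0.086, adjusted p = 0.909); the cause was not tested. Cacnb2 lost its call in 6 alternatives (without the low-count filter, in exon-bin sums, when wild-type replicate 1 or either of knockout replicates 2 and 3 was left out, and with wild-type libraries alone), with log2 fold changes of -0.23 to -0.21 over all alternatives. Cacnb1 lost its call with wild-type libraries alone (-0.31). The other 15 members called kept their call in every alternative. The number of member bins called in dentate gyrus was 1 with limma-voom, and from 0 to 1 when a library was left out, the bin being bin 18 of Cacnb4; the cause was not tested. Leaving out both choroid-rich knockout libraries was added after the data were seen.

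No paired analysis was possible because the labels carry no replicate numbers and nothing ties a library of one group to a library of another. The dentate gyrus library has no replicate, so its values rest on the assumption that it varies like Ammon's horn. Exon pairs and start exons rest on fewer than 100 reads per exon and library, which limits what a share can show, and members with few exon reads (5 with fewer than 50 over the 7 libraries) have no usable fold change.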
